A study of Mus musculus with 8 samples.

Results

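The 8 genes Ung, Fam72a, Hmces, Apex2, Neil1, Msh6, Exo1 and Polh encode proteins that handle uracil, abasic sites or mismatches in DNA, copy DNA at such sites, or bind one of those proteins, and they were taken by symbol from a table of 55421 mouse genes. They were chosen with their difference between germinal centre fractions already known, so that difference is given as a description without a test. All 8 passed the filter on low counts. The libraries come from splenic germinal centre B cells of C57BL/6 mice aged 8 to 10 weeks, taken on day 10 post immunization and enriched with a PNA microbead kit. Each of 4 groups had 2 libraries of total RNA depleted of ribosomal RNA: Smarca4+/- CC (HET CC), Smarca4+/+ CC (WT CC), Smarca4+/- CB (HET CB) and Smarca4+/+ CB (WT CB). CC and CB are read as centrocytes, the cells of the light zone, and centroblasts, the cells of the dark zone. Smarca4 (Brg1) encodes the ATP-driven motor of SWI/SNF complexes, which move nucleosomes. The labels do not give how CC and CB were separated, the immunogen, how the Smarca4 allele was made or which cells lost it. They also do not say whether replicates were separate mice, so each p measures a spread between libraries that may be technical.

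Somatic hypermutation starts when cytosine is turned into uracil in the immunoglobulin genes of dividing dark zone cells. UNG cuts the uracil out and leaves an abasic site, which an endonuclease can cut, a shield protein can cover or an error-prone polymerase can copy past. Alternatively the mismatch of uracil with guanine is bound by a complex that holds MSH6, EXO1 removes a stretch of the strand, and polymerase eta refills it with errors at A and T.

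The 250 bases upstream of the start site are shown for Neil1 and Polh, whose RNA was several times lower in CC, for Msh6, with a smaller difference, and for Fam72a, which was at 0 counts in a whole group. The sequences are from RefSeq on GRCm38.p6 and are read on the strand of the gene. They cover chr9:57148306-57148555 on the minus strand for Neil1, chr17:46202642-46202891 on the minus strand for Polh, chr17:87974800-87975049 on the plus strand for Msh6 and chr1:131527653-131527902 on the plus strand for Fam72a. Capitals mark the CCAAT box (CCAAT) and the GC box (GGGCGG) on either strand.
Neil1: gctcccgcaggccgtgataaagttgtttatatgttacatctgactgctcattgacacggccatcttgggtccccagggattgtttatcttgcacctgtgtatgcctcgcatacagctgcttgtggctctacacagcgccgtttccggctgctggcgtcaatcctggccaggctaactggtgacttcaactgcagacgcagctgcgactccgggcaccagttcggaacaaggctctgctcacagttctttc
Polh: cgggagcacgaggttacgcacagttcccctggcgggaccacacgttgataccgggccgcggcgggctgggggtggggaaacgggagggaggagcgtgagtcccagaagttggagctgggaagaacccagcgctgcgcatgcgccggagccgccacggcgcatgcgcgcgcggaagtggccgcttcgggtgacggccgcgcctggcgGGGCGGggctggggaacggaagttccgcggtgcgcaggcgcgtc
Msh6: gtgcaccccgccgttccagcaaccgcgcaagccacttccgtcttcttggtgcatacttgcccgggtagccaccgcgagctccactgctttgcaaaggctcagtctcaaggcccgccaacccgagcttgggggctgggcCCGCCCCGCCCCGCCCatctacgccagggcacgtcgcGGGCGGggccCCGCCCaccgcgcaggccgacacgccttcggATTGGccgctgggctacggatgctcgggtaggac
Fam72a: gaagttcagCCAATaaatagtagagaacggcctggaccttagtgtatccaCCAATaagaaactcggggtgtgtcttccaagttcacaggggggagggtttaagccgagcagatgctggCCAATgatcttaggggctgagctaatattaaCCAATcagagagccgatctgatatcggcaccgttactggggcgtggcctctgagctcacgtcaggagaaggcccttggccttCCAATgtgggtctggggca
Windows from 250 bases before to 50 after the start were matched by symbol for 6 of the 8 members (Ung, Hmces, Neil1, Polh, Msh6 and Fam72a), and both strands were searched. The GC box was found in 4 of the 6 (Ung, Hmces, Polh and Msh6), against 35.7% of 32851 windows of the same length, and copies overlapped each other in Hmces and Msh6. The CCAAT box was found in 2 of the 6 (Msh6 and Fam72a), against 37.4% of windows. An E2F motif (searched as TTCCCGC, as the variant TTGGCGC, as the variant TTCGCGC and as the variant TTGCCGC) was found in Msh6, against 9.57% of windows, and a CHR motif (TTTGAA or TTCGAA) in Fam72a, against 19.2%. Both of these lay downstream of the start, at bases 17 and 38, outside the letters printed. The Fam72a window held 6 copies of CCAAT, all on the gene's strand and all but the last within the printed stretch. That number was looked up because it stood out, and 26 of the 32851 windows (0.0791%) held as many. The Neil1 window held none of the letters searched.

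Total counts were 526353 to 837558 per CC library and 18357578 to 24341805 per CB library. A single count was thus worth 1.19 to 1.79 CPM (the count scaled by TMM to a common total) in CC and 0.0467 to 0.0527 CPM in CB. Of the counts from 1 to 40, 81.3% to 90.8% in the CC libraries and 73.2% to 79.8% in the CB libraries were even numbers, so counting intervals and floors, which cover counting error only, may be too small. Smarca4 itself stood at 244 and 311 CPM in HET CC against 322 and 316 CPM in WT CC, and at 734 and 702 CPM in HET CB against 897 and 1002 CPM in WT CB. Its log2 fold change between genotypes was -0.20 (SE 0.18, adjusted p = 0.607) in CC and -0.40 (SE 0.17, adjusted p = 1) in CB by edgeR. With only the CB groups fitted, its adjusted p in CB was 0.467 by edgeR. Light zone markers summed to 636 to 842 CPM in the CC libraries and 267 to 335 CPM in the CB libraries, and dark zone markers to 255 to 383 CPM in CC and 829 to 929 CPM in CB. Of the dark zone markers, Mme was at 0 counts in HET CC, HET CB and WT CB. Among the light zone markers, Bcl2a1b was at 0 counts in WT CC, against 1.88 and 3.41 CPM in WT CB. That is close to what 3 counts over the WT CC group would be worth (2.56 CPM). In bulk RNA, fewer cells of a type and less RNA per cell cannot be told apart.

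**Figure D1:**
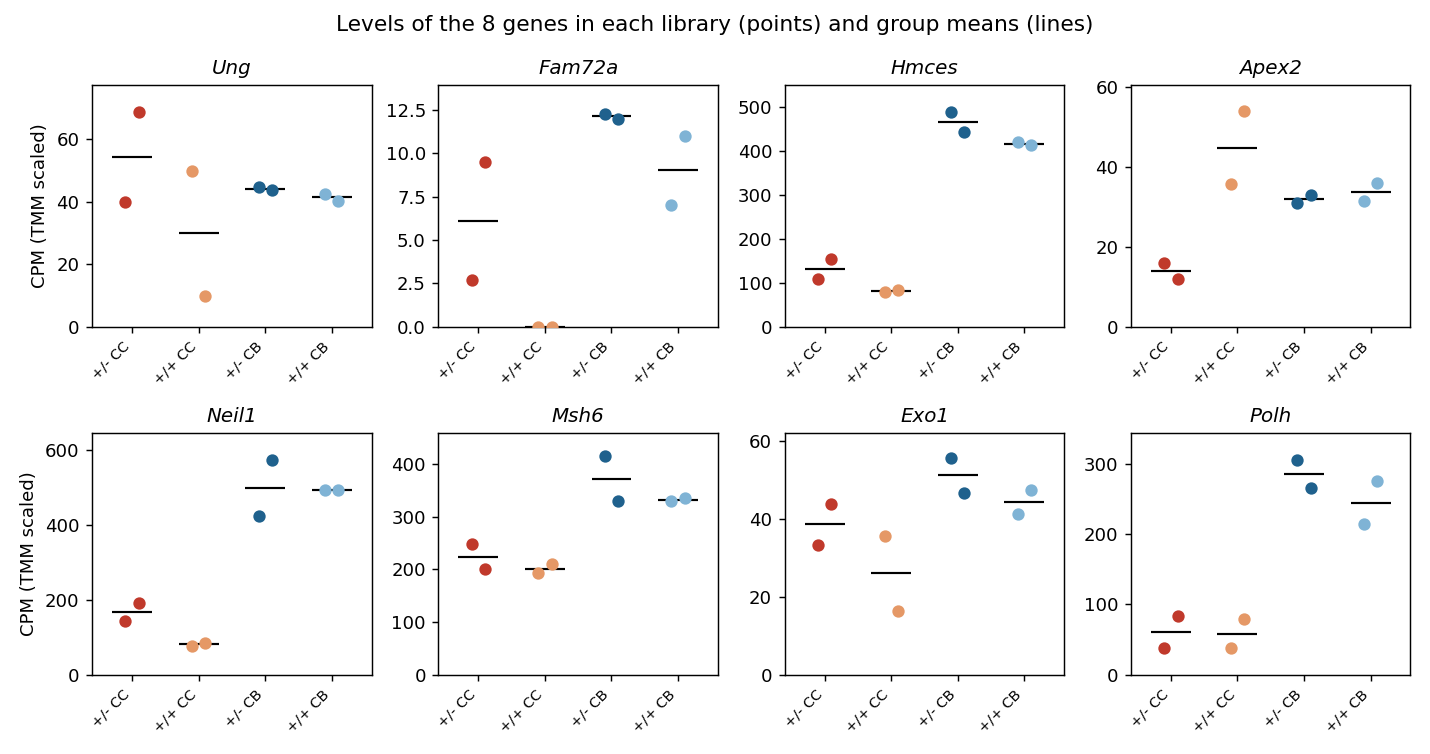
RNA level of each of the 8 genes (CPM, linear axes from 0) in every library, with 2 points and a line at the mean for each group in the order HET CC, WT CC, HET CB and WT CB. Hmces, Neil1, Polh and Msh6 lie lower in all 4 CC libraries than in all 4 CB libraries, and Fam72a is at 0 in both WT CC libraries.

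Ung (ENSMUSG00000029591.14, chr5:114130386-114139323, plus strand, mm10) encodes the glycosylase that removes uracil. It had 40.1 and 68.8 CPM in HET CC, 50.03 and 9.81 CPM in WT CC, 44.8 and 43.8 CPM in HET CB, and 42.5 and 40.4 CPM in WT CB. The CC libraries spread on both sides of the CB libraries, which lay close together, and the lowest CC value rested on 6 counts in WT CC replicate 2. The log2 fold change of CC over CB was 0.30 (SE 0.49) in HET and -0.49 (SE 0.54) in WT. Without WT CC replicate 2 the WT value was 0.27, and without WT CC replicate 1 it was -2.08, a lone library being taken to vary like the other groups. In HET it was -0.14 without HET CC replicate 2.

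Fam72a (ENSMUSG00000055184.4, chr1:131527903-131539872, plus strand) encodes a protein that binds UNG2 and opposes it. Its RNA stood at 2.67 and 9.48 CPM in HET CC, from 2 and 8 counts, and at 0 counts in both WT CC libraries. In CB it stood at 12.3 and 11.96 CPM in HET and 7.01 and 11.02 CPM in WT. In each genotype both CC libraries were below both CB libraries. Set against a floor of 3 counts over the group (2.56 CPM), WT CC was at least 3.52-fold lower than WT CB. HET CC averaged 0.501 times HET CB, with a log2 fold change of -0.97 (SE 0.80), which was -2.18 without HET CC replicate 2 and -0.35 without HET CC replicate 1. Per length of transcript, the level of Fam72a was 0.166 and 0.344 of that of Ung in HET CC, 0.684 and 0.682 in HET CB, and 0.411 and 0.681 in WT CB, with no Fam72a count in WT CC.

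Hmces (ENSMUSG00000030060.14, chr6:87913935-87936629, plus strand) encodes a protein that binds covalently to abasic sites in single-stranded DNA and so covers them. It had 108 and 154 CPM in HET CC, 78.6 and 83.4 CPM in WT CC, 489 and 442 CPM in HET CB, and 421 and 413 CPM in WT CB. Every CC library was below every CB library, and the HET CC libraries were above the WT CC libraries. The CC level was 0.282 times the CB level in HET and 0.194 times in WT, log2 fold changes of -1.82 (SE 0.21) and -2.36 (SE 0.23). Of its exon bases, 154 (6.30%) are shared with Gm26636 on the opposite strand, a gene with 36 counts over the 8 libraries.

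Apex2 (ENSMUSG00000025269.16, chrX:150519519-150589868, minus strand) encodes an endonuclease that cuts DNA at abasic sites. It had 16.0 and 11.9 CPM in HET CC, 35.7 and 53.9 CPM in WT CC, 31.0 and 32.9 CPM in HET CB, and 31.5 and 36.1 CPM in WT CB. The HET CC libraries, with 12 and 10 counts, were the lowest of all 8, and the WT CC libraries overlapped the CB range. The log2 fold change of CC over CB was -1.20 (SE 0.43) in HET and 0.41 (SE 0.39) in WT, and the WT value was 0.08 without WT CC replicate 2. Its exons share 311 bases (3.56%) with Alas2 and 123 bases (1.41%) with Pfkfb1, both on the opposite strand, and the strand setting of the counting is not given in the sources used here. Pfkfb1 had 865 counts over the 8 libraries. Alas2, which makes haem in red cell precursors, had 46 counts over the 8 libraries, and erythroid markers summed to 147 to 486 CPM in HET CC and 718 to 808 CPM in WT CC. The part of these genes in the Apex2 values was not tested.

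Neil1 (ENSMUSG00000032298.13, chr9:57142800-57148305, minus strand) encodes a glycosylase for oxidised bases that can also cut an abasic site. It had 142 and 189.7 CPM in HET CC, 76.8 and 85.0 CPM in WT CC, 423 and 573 CPM in HET CB, and 494 and 493 CPM in WT CB. The CC libraries were again all below the CB libraries, with HET CC above WT CC. The CC level was 0.333 times the CB level in HET and 0.164 times in WT, log2 fold changes of -1.59 (SE 0.22) and -2.61 (SE 0.24). None of its exon bases is shared with another gene.

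Msh6 (ENSMUSG00000005370.4, chr17:87975062-87990892, plus strand) encodes a mismatch repair protein that recognises uracil opposite guanine. It had 247 and 200.4 CPM in HET CC, 193 and 209 CPM in WT CC, 414 and 330.3 CPM in HET CB, and 329.6 and 335 CPM in WT CB. Its CC libraries lay below its CB libraries by a smaller and near equal amount in both genotypes, 0.601 times in HET and 0.605 times in WT. The log2 fold changes were -0.74 (SE 0.20) and -0.72 (SE 0.20). Of its exon bases, 34 (0.782%) are shared with Fbxo11 on the opposite strand, a gene with 8788 counts over the 8 libraries.

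Exo1 (ENSMUSG00000039748.11, chr1:175880581-175913489, plus strand) encodes the exonuclease that opens the gap from which mismatch repair resynthesises DNA. It had 33.4 and 43.9 CPM in HET CC, 35.7 and 16.3 CPM in WT CC, 55.7 and 46.8 CPM in HET CB, and 41.4 and 47.5 CPM in WT CB. Both CC groups lay below the CB group of their genotype, by log2 fold changes of -0.40 (SE 0.38) in HET and -0.78 (SE 0.42) in WT. Without WT CC replicate 2 the WT value was -0.31, and without WT CC replicate 1 it was -1.44. In HET it was -0.22 without HET CC replicate 1 and -0.62 without HET CC replicate 2.

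Polh (ENSMUSG00000023953.9, chr17:46171355-46202645, minus strand) encodes polymerase eta, the translesion polymerase behind mutations at A and T. It had 37.4 and 83.0 CPM in HET CC, 37.5 and 78.5 CPM in WT CC, 306 and 266 CPM in HET CB, and 214 and 276 CPM in WT CB. In both CC groups the replicates were far apart, and all 4 CC libraries stayed below the CB libraries. The CC level was 0.210 times the CB level in HET and 0.237 times in WT, log2 fold changes of -2.24 (SE 0.37) and -2.07 (SE 0.38).

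**Figure D2:**
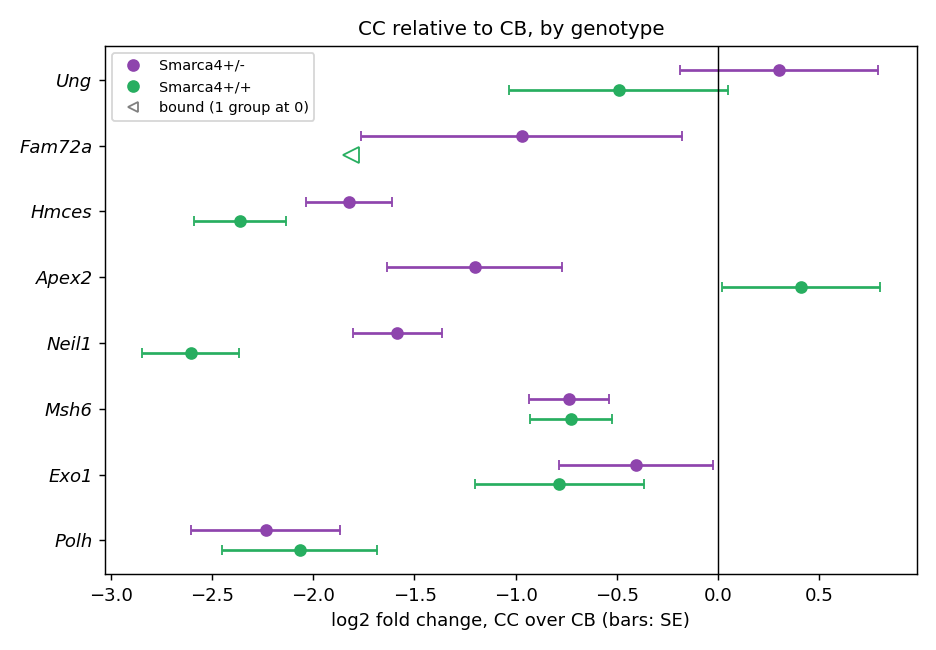
Log2 fold change of CC over CB for each of the 8 genes in HET (purple) and in WT (green), with bars of 1 SE and a triangle at the bound for Fam72a in WT. Hmces, Neil1 and Polh lie between -2.61 and -1.59 in both genotypes, Msh6 at -0.74 and -0.72, and Ung and Apex2 on opposite sides of 0 in HET and WT.

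Hmces, Neil1 and Polh, from the abasic site and synthesis steps, had the lowest CC levels for their CB level in both genotypes, apart from the bound of Fam72a, at 0.164 to 0.333 times. Msh6 stood at about 0.6 times, and Ung and Apex2 had opposite signs in HET and WT. The CC libraries lay wholly below the CB libraries for 7 of 8 genes in HET and 6 of 8 in WT, where 33.2% and 38.5% of the 12997 genes that passed the filter did so. Nothing is read from these counts, because the genes were chosen on this contrast. The median log2 fold change was -1.09 over the 8 genes and -0.08 over all genes in HET, and -1.30 (Fam72a at its bound) and -0.19 in WT. Scaling to 10 pan B cell genes instead of TMM moved the median of all genes to 0.19 in both genotypes. On that scale the HET and WT values were -1.57 and -1.98 for Hmces, -1.31 and -2.22 for Neil1, and -2.01 and -1.70 for Polh. Those of Msh6 were -0.44 and -0.34, nearer to 0 than with TMM.

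Several marker lists moved with the fractions. G2/M phase genes summed to 3195 to 4836 CPM in HET CC, 2094 to 2130 CPM in WT CC, 7272 to 9162 CPM in HET CB and 7133 to 7920 CPM in WT CB. S phase genes summed to 0.631 times their CB level in HET CC and 0.609 times in WT CC, germinal centre B cell genes to 0.558 and 0.431 times, dark zone genes to 0.349 and 0.339 times, and pan B cell genes to 0.827 and 0.763 times. The G2/M sum stood at 0.489 times its CB level in HET CC and 0.281 times in WT CC, but Mki67 alone made up 48.2% to 55.6% of it. Single G2/M genes ranged from 0.185 times (Ccnb2) to 0.581 times (Nusap1) in HET and from 0.0608 times (Aurka) to 0.465 times (Ube2c) in WT. Of the 18 genes, 7 in HET and 9 in WT were as low as or lower than the highest of Hmces, Neil1 and Polh (0.333 in HET and 0.237 in WT), so these 3 lay within the range of the list. The same held for 2 of the 3 dark zone genes with CB counts in each genotype. These ranged from 0.194 times (Gcsam) to 0.499 times (Foxo1) in HET and from 0.135 to 0.515 times (the same genes) in WT.

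**Figure D3:**
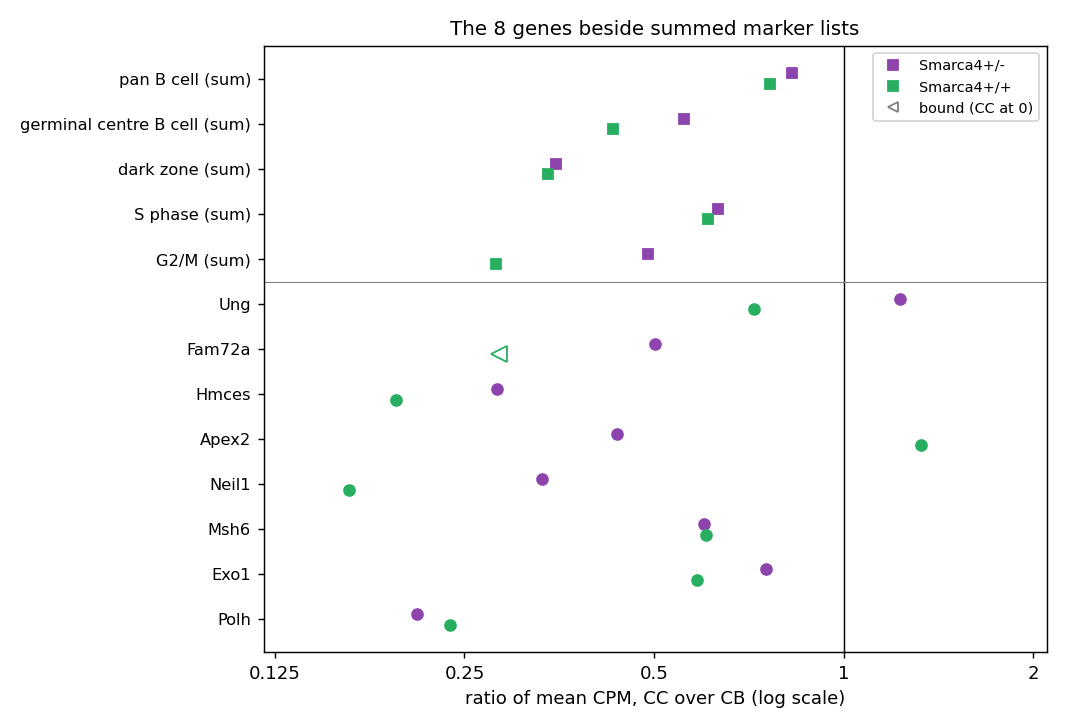
Ratio of mean CPM in CC over CB (log scale) in HET (purple) and WT (green) for 5 summed marker lists (squares) and the 8 genes (circles), with a triangle at the bound for Fam72a in WT. Hmces, Neil1 and Polh lie at 0.164 to 0.333, left of the list sums of their genotype but within the ranges of single G2/M genes and single dark zone genes, which are not drawn. Msh6 (0.601 and 0.605) lies near the S phase list (0.631 and 0.609).

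Markers of macrophages, T cells, red cells, and naive and memory B cells were higher in CC, but plasma cell markers were not so in both genotypes. Plasma cell genes summed to 0.850 times their CB level in HET CC and 1.05 times in WT CC. Of these 5 genes, 1 was called lower in HET and 1 higher in WT. Over all 12997 genes, 282 were called higher and 195 lower in HET, and 484 higher and 489 lower in WT. Macrophage genes summed to 1539 to 3504 CPM in HET CC, 2885 to 3020 CPM in WT CC, 68.4 to 104 CPM in HET CB and 48.7 to 234 CPM in WT CB, with 12 of 12 called higher in HET and 10 of 12 in WT. T cell genes summed to 203 to 284 CPM in HET CC, 616 to 664 CPM in WT CC, 111 to 113 CPM in HET CB and 136 to 139 CPM in WT CB, with 6 of 12 called in HET and 8 of 12 in WT. Lck alone made up 95.2% to 97.8% of the CB sums, and the other 11 T cell genes summed to 36.8 to 184 CPM in HET CC, 456 to 459 CPM in WT CC, 2.45 to 3.16 CPM in HET CB and 4.39 to 6.65 CPM in WT CB. Naive and memory B cell genes summed to 847 to 1293 CPM in HET CC, 1539 to 1542 CPM in WT CC, 307 to 359 CPM in HET CB and 346 to 431 CPM in WT CB, with 7 of 9 called in HET and 9 of 9 in WT. Erythroid markers, at 8.17 to 11.5 CPM in HET CB and 14.1 to 17.6 CPM in WT CB, had 6 of 9 genes called in HET and 8 of 9 in WT. No T cell, macrophage, erythroid or naive and memory B cell marker was at 0 in a CC group, while Trbc1 and Marco were at 0 in HET CB and Cd3e, Il7r, Car1 and Klf1 in WT CB. The part of these cells and of the cell cycle in the values of the 8 genes was not tested.

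Levels per kilobase of exon differed widely among the 8 genes. The order of the means over 4 libraries differed between the fractions, but in HET alone the group means had the same order in CC and CB. In CC, over 4 libraries, Neil1 averaged 65.9 CPM per kb (41.1 to 101), Msh6 48.9 (44.4 to 56.8) and Hmces 43.4 (32.2 to 63.0), and these 3 overlapped. Polh followed at 9.93 CPM per kb (6.28 to 13.9), overlapping Ung at 7.71 (1.79 to 12.6), with Exo1 at 3.84, Apex2 at 3.36 and Fam72a at 1.39 CPM per kb. In CB Neil1 averaged 265 CPM per kb, Hmces 180.5, Msh6 81.1, Polh 44.6, Ung 7.84, Exo1 5.68, Fam72a 4.82 and Apex2 3.76 CPM per kb. Each of the upper 5 lay wholly above the next gene, while Exo1 overlapped Fam72a and Fam72a overlapped Apex2. In both fractions the level of Ung per kilobase was thus below those of Neil1, Hmces and Msh6 in every library.

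A profile shared by the 8 genes was taken as the mean of their standardised log2 CPM over the 8 libraries. Against the mean of the other members, Pearson r was 0.98 for Hmces, 0.96 for Neil1, 0.87 for Msh6, 0.87 for Polh, 0.81 for Fam72a, 0.76 for Exo1, 0.32 for Ung and -0.14 for Apex2. Of 6172 other genes averaging 20 CPM or more, the most alike were Cdv3 (r = 0.993), Kif11 (0.993), Anxa2 (0.993), Tpx2 (0.992), Usp1 (0.990), Tmem131l (0.990), Tubb4b (0.990) and Tfdp1 (0.987). Kif11 and Tpx2 encode proteins of the mitotic spindle, and Usp1 encodes the deubiquitinase that acts on PCNA. The 8 libraries fall into a CC and a CB cluster of very different depth, so these r values describe mainly the contrast of the fractions.

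The wider pathway was followed in 37 other genes, of which 36 passed the filter. In WT, 5 of the 36 fell in CC and 0 rose by edgeR (adjusted p under 0.05), where 7.49% of all genes were called, 3.76% lower and 3.72% higher. These were Mbd4 among 5 genes of uracil removal, Xrcc1 and Neil3 among 12 of base excision repair, Msh3 among 6 of mismatch repair and Polq among 13 of translesion synthesis. The WT count was 3 without either HET CB library (3.12% and 3.32% of all genes), 2 without either WT CB library (1.31% and 1.55%) and 11 without either HET CC library (11.4% and 11.3%). It was 3 with total count scaling (6.59%) and 9 by DESeq2 (16.1%). In HET, 0 of the 36 passed, against 3.67% of all genes. At an unadjusted p under 0.05 the HET count was 12 of 36, where 18.2% of all genes passed, and DESeq2 called 4, against 11.2%. The edgeR count at an adjusted p under 0.05 in HET was 8 without HET CC replicate 2, against 7.27% of all genes, and 2 without either WT CC library, against 7.18% and 7.19%. The median log2 fold change over the 36 genes was -0.46 in HET and -0.57 in WT.

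Msh3, a mismatch repair gene whose protein recognises larger loops, had 48.1 and 97.2 CPM in HET CC, 17.9 and 6.54 CPM in WT CC, 153 and 146 CPM in HET CB, and 155 and 144 CPM in WT CB. It fell in WT CC by 3.64 on the log2 scale (SE 0.46, adjusted p = 0.00165), and its HET value was -1.03 (SE 0.34, adjusted p = 0.132), which was -1.64 (adjusted p = 0.0302) without HET CC replicate 2 and -0.62 (adjusted p = 0.394) without HET CC replicate 1. Mbd4, a glycosylase for thymine or uracil opposite guanine, had 164 and 192 CPM in HET CC, 75.1 and 111 CPM in WT CC, 262 and 270.1 CPM in HET CB, and 258 and 274 CPM in WT CB. It fell in WT CC by 1.51 on the log2 scale (SE 0.23, adjusted p = 0.00393), and its HET value was -0.58 (SE 0.22, adjusted p = 0.189).

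Polq, the polymerase of theta-mediated end joining, had 77.4 and 91.3 CPM in HET CC, 17.9 and 3.27 CPM in WT CC, 84.5 and 64.4 CPM in HET CB, and 72.1 and 66.8 CPM in WT CB. It fell in WT CC by 2.75 on the log2 scale (SE 0.50, adjusted p = 0.00939), a call that was lost without WT CB replicate 1 (0.0728) or WT CB replicate 2 (0.0625), and its HET value was 0.18 (SE 0.36, adjusted p = 0.84). The WT value was -4.40 without WT CC replicate 1 and -1.96 without WT CC replicate 2. The WT CC values of Msh3 rest on 10 and 4 counts and those of Polq on 10 and 2.

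**Figure D4:**
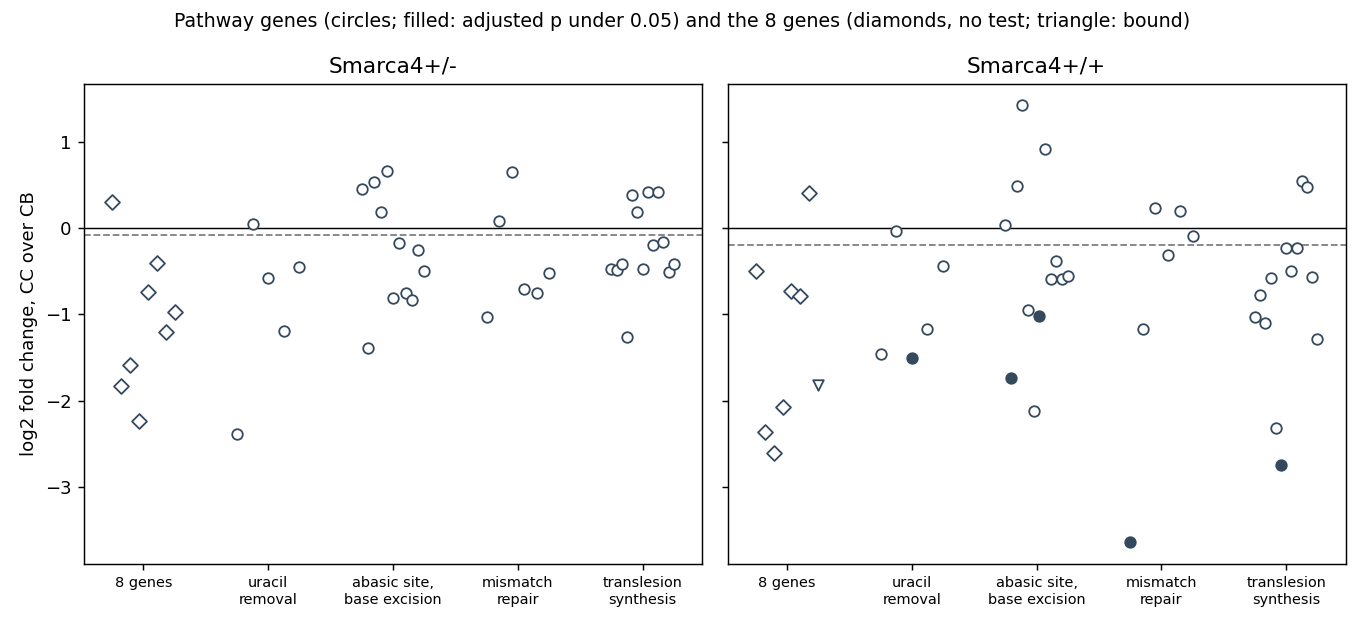
Log2 fold change of CC over CB in HET (left) and WT (right) for the tested pathway genes by step (circles, filled where the adjusted p was under 0.05) and the 8 genes (diamonds, with a triangle at the bound of Fam72a), beside the median of all genes (dashed line). Most circles lie below 0 in both genotypes, with 0 filled in HET and 5 in WT (Mbd4, Xrcc1, Neil3, Msh3 and Polq). Nthl1, at 0 counts in HET CC and in HET CB under the floor of CC, is not drawn for HET.

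Loss of 1 Smarca4 copy was compared within each fraction, the question the study's design names. In CC, 0 of the 8 genes were called by edgeR, where 0.0231% of all genes were called. Neil1 was 2.05 times as high in HET CC as in WT CC (log2 fold change 1.03, SE 0.25, adjusted p = 0.133). Hmces was 1.62 times as high (0.70, SE 0.24, adjusted p = 0.216), and Fam72a at least 2.37-fold higher against the floor (adjusted p = 0.232). Apex2 was 0.311 times as high (-1.70, SE 0.46, adjusted p = 0.162), and of the 8 it alone had both HET CC libraries below both WT CC libraries. For Ung the value was 0.89 (SE 0.57, adjusted p = 0.46), which was 0.13 without WT CC replicate 2 and 2.48 without WT CC replicate 1. The remaining values were 0.58 (SE 0.45, adjusted p = 0.54) for Exo1, which was 0.12 without WT CC replicate 2 and 1.25 without WT CC replicate 1, 0.15 (SE 0.21, adjusted p = 0.759) for Msh6 and 0.06 (SE 0.42, adjusted p = 0.988) for Polh. The libraries of HET CC lay wholly above those of WT CC for 3 of 8 genes, against 18.1% of all genes, and wholly below for 1, against 14.4%. The 8 genes were chosen on CC against CB, and the comparison of genotypes reuses the same CC libraries. Counts among the 8 are thus not independent of that choice, and nothing is read from them.

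**Figure D5:**
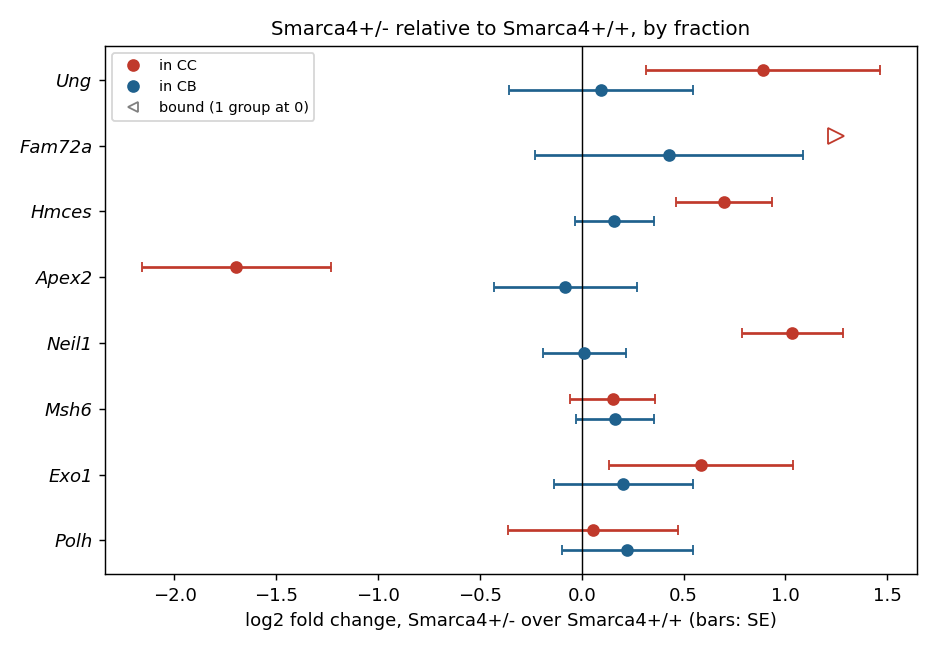
Log2 fold change of HET over WT for each of the 8 genes in CC (red) and in CB (blue), with bars of 1 SE and a triangle at the bound for Fam72a in CC. In CC Neil1 (1.03) and Hmces (0.70) lie above 0 and Apex2 (-1.70) below it, while all CB values lie between -0.08 and 0.43.

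The calls in CC depended on the tool. At an unadjusted p under 0.05 in edgeR, 4 of the 8 genes passed (Neil1, Apex2, Hmces and Fam72a), against 15.2% of all genes. DESeq2 called Neil1 (adjusted p = 0.00927), Apex2 (0.00629) and Hmces (0.0477), against 5.7% of all genes, and limma-voom called 0 of the 8. The choice of the 8 genes on CC against CB, which uses the same CC libraries, limits all these counts. HET CC replicate 2 was the higher of its pair for Neil1, Hmces, Polh, Ung, Exo1 and Fam72a, and it also had the highest G2/M sum (4836 CPM) and the lowest macrophage sum (1539 CPM) of the CC libraries. Without it the log2 fold change of HET over WT in CC was 0.81 for Neil1, 0.42 for Hmces and -1.49 for Apex2, and without HET CC replicate 1 it was 1.23, 0.93 and -1.92. T cell, erythroid and naive and memory B cell sums were lower, and G2/M sums higher, in both HET CC libraries than in both WT CC libraries, and their part in these differences was not tested. With libraries scaled to pan B cell genes the values were 0.97 for Neil1, 0.63 for Hmces and -1.72 for Apex2.

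In CB, 0 of the 8 genes were called, as were 0% of all genes, and 0 of 8 had an unadjusted p under 0.05, against 0.646% of all genes. The fit shares its spread over all 8 libraries. Replicates correlated at 0.751 and 0.738 in the CC groups, against 0.979 and 0.964 in the CB groups. Errors and p-values in CB may thus be too large, so the lack of calls does not show that the genotypes were equal. DESeq2 also called 0 of 8, and 0.0231% of all genes. The log2 fold changes of HET over WT lay between -0.08 (Apex2, SE 0.35) and 0.43 (Fam72a, SE 0.66), each with an adjusted p of 1. Those with the smallest errors were 0.16 (SE 0.19) for Hmces, 0.16 (SE 0.19) for Msh6 and 0.01 (SE 0.20) for Neil1. HET CB libraries lay wholly above WT CB libraries for 3 of 8 genes (Ung, Hmces and Fam72a), against 16.2% of all genes, and wholly below for 0, against 15.8%.

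Whether the genotypes differed by another amount in CC than in CB was tested as an interaction, and 0 of the 8 genes passed in edgeR, as did 0% of all genes. The difference of the log2 fold changes (CC minus CB) was 1.02 for Neil1 (SE 0.32, adjusted p = 0.421), 0.54 for Hmces (SE 0.30, adjusted p = 0.592) and -1.61 for Apex2 (SE 0.58, adjusted p = 0.458), while that of Fam72a had an adjusted p of 0.52. At an unadjusted p under 0.05, 3 of 8 passed (Neil1, Apex2 and Fam72a), against 9.19% of all genes, and DESeq2 called 0 of 8 and 2.12% of all genes. The interaction reuses the libraries on which the 8 genes were chosen, so nothing is read from these counts.

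Among the 36 pathway genes, edgeR called 0 between genotypes in CC, 0 in CB and 0 in the interaction. At an unadjusted p under 0.05, 6 of the 36 passed in CC (16.7%, against 15.2% of all genes), 0 in CB (against 0.646%) and 6 in the interaction (16.7%, against 9.19%). DESeq2 called 4 in CC (against 5.7% of all genes), 0 in CB (against 0.0231%) and 3 in the interaction (against 2.12%). Polq, Msh3 and Mbd4 were named because they were called lower in WT CC than in WT CB. The genotype test in CC and the interaction reuse the same WT CC libraries, so that choice favours high values and small p-values here. In CC the values of HET over WT were 3.03 for Polq (SE 0.52, adjusted p = 0.0948), 2.60 for Msh3 (SE 0.49, adjusted p = 0.1) and 0.93 for Mbd4 (SE 0.24, adjusted p = 0.154). DESeq2 called all 3, with adjusted p-values of 2.82e-06 for Polq, 0.000215 for Msh3 and 0.00175 for Mbd4. Without WT CC replicate 1 the values were 4.69 for Polq and 3.48 for Msh3, and without WT CC replicate 2 they were 2.24 and 2.03. The interaction was 2.93 for Polq (SE 0.63, adjusted p = 0.419) and 2.60 for Msh3 (SE 0.59, adjusted p = 0.419), while DESeq2 gave adjusted p-values of 0.000388 and 0.00515. It was 4.59 for Polq without WT CC replicate 1 and 2.14 without WT CC replicate 2.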

How the data were processed

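The authors deposited raw counts of reads for each gene in all 8 libraries, without normalization. FastQC, STAR, featureCounts, Subread, R 4.2.1 and mm10 are named per the submitters' processing notes, while the other versions, the strand setting and the rule for multi-mapped reads were not given in the sources used here. A deposited column holds the other unit, summed exon length in bases, per the file headers, which served for levels per kilobase. Of 55421 gene identifiers, 54587 were found in the gene name table with their version, and 55154 could be given a symbol.

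The low count filter was edgeR's filterByExpr with a minimum count of 10 and a minimum total of 15, and 12997 genes passed. TMM factors scaled the libraries, and a quasi-likelihood model with 1 mean per group (4 residual degrees of freedom) was fitted to all 8 libraries with edgeR 4.0.16 in R 4.3.3, tested 2-sided and adjusted by Benjamini-Hochberg over all kept genes at 0.05. Each standard error (SE) is the log2 fold change divided by the square root of F. DESeq2 1.42.0 and limma 3.58.1 (voom) were alternatives, beside other scalings, filters, a replicate block, thinned CB libraries, halved counts and each library left out. Replicates differed by more than sampling noise.

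Members, gene lists and settings were chosen with earlier results of these data known. The named pathway genes were up to 3 called genes per contrast and direction, and a few genes of the lists are not reported here. The named alike genes were the 8 of highest r. Fold changes against a group at 0 counts use a floor of 3 counts over the group.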

Additional observations from a re-analysis of the deposited data

Results flagged for a closer look

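Polb, the gap-filling polymerase of base excision repair, had 41.4 and 14.2 CPM in HET CC, 7.15 and 3.27 CPM in WT CC, 16.0 and 18.9 CPM in HET CB, and 21.4 and 23.2 CPM in WT CB. Every HET library was above every WT library in CC and below in CB, but the WT CC values rest on 4 and 2 counts. The difference of the log2 fold changes (CC minus CB) was 2.77 (SE 0.93, adjusted p = 0.437 by edgeR). Lig3, a DNA ligase of the same pathway, had 40.1 and 41.5 CPM in HET CC, 76.8 and 105 CPM in WT CC, 49.9 and 42.3 CPM in HET CB, and 43.7 and 52.3 CPM in WT CB. Its CC libraries lay below CB in HET and above CB in WT, and the difference (HET minus WT) was -1.10 (adjusted p = 0.499). Both genes fall outside the rule for named genes and were chosen after their values were seen.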

How the results depend on the processing

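The RLE and pan B cell scalings and the stricter filter moved no count of called genes among the 8 or the 36 beyond 1.5 times. For the 8 genes, DESeq2 called 3 between genotypes in CC (against 5.7% of all genes), and without a low count filter 1 was called there (against 1.5%). Counts of calls among the 8 are not given for CC against CB, because the genes were chosen on that contrast. Those between genotypes in CC reuse the same CC libraries. For the 36 pathway genes, or all 37 without a filter, the counts are given with the share of all genes called in brackets. Between genotypes in CC they were 4 by DESeq2 (5.7%), 3 without a filter (1.5%) and 2 with thinned CB libraries (0.331%). They were 1 with only the groups compared (0.177%) and 2 with halved counts (0.231%). For CC against CB in HET they were 4 by DESeq2 (11.2%), 5 without a filter (5.3%) and 5 with halved counts (8.1%). For CC against CB in WT they were 9 by DESeq2, 2 by limma-voom, 10 without a filter, 3 with total count scaling, 3 with only the groups compared and 2 to 11 with each library left out. For the interaction they were 3 by DESeq2 (2.12%) and 2 without a filter (0.213%). Halving was added after the data were seen, because most counts were even.

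Deviations of libraries with equal replicate numbers had correlations of -0.046 to 0.053 between groups over 12997 genes. Each rests on the difference between the replicates of a group. The log2 CPM of replicates correlated at 0.751 in HET CC and 0.738 in WT CC, against 0.979 in HET CB and 0.964 in WT CB. Whether equal numbers mark the same mouse is not given in the labels and was not tested. With the replicate number as a block across all groups, the pathway count was 0 for CC against CB in HET and 5 in WT. Of all genes, 3.41% and 6.25% were called there. With the block within genotype it was 3 in HET (4.43% of all genes) and 9 in WT (7.43%). For the interaction it was 2 (Polq and Msh3, each with an adjusted p of 0.00883, where 0.1% of all genes were called). Both genes were named for being lower in WT CC than in WT CB, and the interaction reuses those libraries. No other count moved beyond 1.5 times under the block.

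Some log2 fold changes changed sign. Between genotypes in CB, with thinned CB libraries, they were -0.058 for Ung, -0.098 for Neil1 and 0.060 for Apex2, and with the replicate block -0.0058 for Neil1. Between genotypes in CC, Polh was -0.032 with pan B cell scaling. With each library left out, Neil1 ranged over -0.21 to 0.22, Apex2 over -0.19 to 0.039 and Msh6 over -0.0091 to 0.33 between genotypes in CB. In CC, Polh ranged over -0.65 to 0.70 and Msh6 over -0.0061 to 0.30. For CC against CB, Ung ranged over -0.14 to 0.63 in HET and -2.08 to 0.27 in WT, and Polq over -0.021 to 0.39 in HET. The cause was not tested. Depth limits the CC values, where 1 count is 1.19 to 1.79 CPM.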
